A study of Mus musculus with 22 samples.

Results

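Integrins are paired surface receptors, each made of an alpha and a beta subunit, that fasten a cell to its neighbours or to the extracellular matrix. They were examined here at the transcript level in sorted brain cells. The members were the 3 CD11 alpha subunit genes Itgax (CD11c), Itgam (CD11b) and Itgal (CD11a), the alpha subunit genes Itga4, Itga5, Itga6 and Itgav, and the beta subunit genes Itgb1, Itgb2 and Itgb5. They were picked by name, 10 of the 22485 genes named on the array, and all 10 were measured. Together they had 16 probes, and 5 of the genes had more than 1. Each gene is represented by its main probe, the one with the highest mean over all 22 samples.

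Microglia and astrocytes came from the cortex of C57BL/6 mice aged 15 to 18 months. The APP/PS1 mice (APPswe/PS1dE9) carry mutant human APP and presenilin transgenes under a prion protein promoter and form amyloid plaques with age; the controls were wild-type (WT) littermates without them. Cells of both genotypes went through the same papain and DNase digestion, Percoll gradient, myelin and O4 removal and dead-cell gate. Microglia were sorted as CD11b+/CD45+ and astrocytes as GLT1+/CD11b-, so the product of Itgam, one of the genes described, was itself used in both gates. Each genotype gave 7 samples of microglia and 4 of astrocytes. They were hybridised in pairs to 11 dual-colour Agilent arrays, an APP/PS1 sample beside the WT sample that shares its number. The labels do not say whether a sample was 1 mouse or a pool, so p-values measure the spread between these samples. In the limma fits that spread is pooled over both cell types.

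All values are log2 levels as deposited, and 1 unit is a doubling. The median value was 6.24 to 6.26 in every sample. Of 43020 probes, 32045 to 40771 were filled on the microglia arrays and 42427 to 42869 on the astrocyte arrays, and no detection flags came with the table. The highest member value, 15.78, lay below the table maximum of 17.89. The sorted cells carried their own markers. The mean level of 14 microglial markers was 14.73 to 15.59 in microglia samples and 6.64 to 10.57 in astrocyte samples, and that of 8 astrocyte markers was 13.003 to 15.43 in astrocyte samples and 5.60 to 7.88 in microglia samples. The library labelled WT microglia replicate 3 stood apart: the mean of 5 neutrophil markers was 15.28 there against 7.34 to 8.21 in the other 6 WT microglia samples. On 3 arrays (microglia 1, astrocytes 1 and 3) the Y-linked gene Eif2s3y was high in the APP/PS1 sample and low in the WT sample. Calls that changed without these 3 arrays are named with the results.

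Integrins with the beta subunit encoded by Itgb2 (CD18) are those of leukocytes, and in the brain they mark microglia and other myeloid cells. Itgax, Itgam and Itgal each pair with it; the Itgam pair is complement receptor 3, which binds complement fragment iC3b, and the Itgal pair (LFA-1) binds the adhesion molecule Icam1. The beta subunit of Itgb1 pairs with the products of Itga4 (a receptor for Vcam1 and fibronectin), Itga5 (the main fibronectin receptor) and Itga6 (a laminin receptor). The product of Itgav pairs with several beta subunits, Itgb5 among them, and binds vitronectin and latent TGF-beta. CD11c is widely used as a marker of microglia gathered at amyloid plaques.

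The promoters of 7 of the 10 members were found in the RefSeq table (build GRCm38.p6). Shown are those of Itgax and Itga5, which were higher in APP/PS1 samples of both cell types, and of Itgam, whose main probe was lower. Each runs 5′ to 3′ on the gene's strand and ends at the base before the gene's annotated start, which for Itgax falls after 226 bases of the table's entry. Capitals mark matches to motifs known from myeloid and inflammatory genes, the PU.1 core GAGGAA and the AP-1 motif TGAGTCA, on either strand.
Itgax (chr7:128129300-128129525, + strand): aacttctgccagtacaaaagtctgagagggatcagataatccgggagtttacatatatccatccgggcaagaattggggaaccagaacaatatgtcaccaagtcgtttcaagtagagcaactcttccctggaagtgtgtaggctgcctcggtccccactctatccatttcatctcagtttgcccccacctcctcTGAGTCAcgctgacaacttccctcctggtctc
Itgam (chr7:128062390-128062639, + strand): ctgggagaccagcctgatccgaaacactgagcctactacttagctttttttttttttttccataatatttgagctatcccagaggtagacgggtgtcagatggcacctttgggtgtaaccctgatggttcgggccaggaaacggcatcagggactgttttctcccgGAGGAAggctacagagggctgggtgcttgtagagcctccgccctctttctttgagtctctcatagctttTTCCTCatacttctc
Itga5 (chr15:103366792-103367041, − strand): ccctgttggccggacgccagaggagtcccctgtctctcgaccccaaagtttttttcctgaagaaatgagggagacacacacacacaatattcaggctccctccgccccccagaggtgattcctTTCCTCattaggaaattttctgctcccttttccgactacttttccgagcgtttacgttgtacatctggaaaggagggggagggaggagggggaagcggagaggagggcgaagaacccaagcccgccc
The AP-1 motif lay 32 to 26 bases before the start of Itgax. The PU.1 core lay 84 to 79 bases before the start of Itgam and, on the other strand, 15 to 10 bases before it and 127 to 122 bases before that of Itga5. In the first 250 bases of each of the 32851 promoter entries of the table, 23.3% held GAGGAA, 4.46% TGAGTCA and 2.98% a motif for interferon regulatory factors, searched as GAAA, any 2 bases and GAAA again. Of the 7 member promoters, 4 held the first (Itgam, Itga5, Itgav, Itgb1), 1 the second (Itgax) and 0 the third. The first motif is a common one at this length, and a match does not show that a factor binds.

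The cell types differed most in Itgax and Itgb2. In a limma fit of WT astrocytes against WT microglia, 4 members were lower in astrocytes and 2 higher, with 4 not passing the adjusted p of 0.05. Over all genes 18.0% were lower and 35.3% higher, so differences between these cell types were common. The members' median difference was -0.47, against 0.34 over all genes. The astrocyte arrays shared 1 slide and the microglia arrays were on 2 others, so here the slide cannot be told apart from the cell type.

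Itgb2, the shared partner of the CD11 subunits, had values of 11.70 to 12.30 (median 12.24) in WT microglia and 11.73 to 12.11 (median 11.91) in APP/PS1 microglia. In the WT astrocytes of replicates 1 to 4 the values were 6.38, 6.22, 6.51 and 6.07, and in the APP/PS1 astrocytes 7.45, 6.64, 6.49 and 6.79. Every astrocyte sample lay below every microglia sample, and the WT difference was -5.86 ± 0.19 (SE; limma adjusted p = 1.34e-15).

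Itgax ranged from 10.99 to 12.03 (median 11.30) in WT microglia and from 13.71 to 14.29 (median 13.98) in APP/PS1 microglia. In WT astrocytes it was 5.90, 4.41, 3.93 and 3.80, and in APP/PS1 astrocytes 9.31, 6.49, 6.99 and 6.83. The 4 groups did not overlap, in the order APP/PS1 microglia, WT microglia, APP/PS1 astrocytes and WT astrocytes. The WT astrocytes were lower than WT microglia by -6.87 ± 0.38 (limma adjusted p = 3.58e-12).

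Among the other subunits, Itga5 and Itgb5 were also lower in WT astrocytes, by -2.22 ± 0.27 (limma adjusted p = 5.81e-07) and -1.94 ± 0.15 (2.26e-09). The laminin receptor subunit Itga6 was higher in WT astrocytes by 1.17 ± 0.23 (1.65e-04), and Itgav by 1.82 ± 0.27 (5.91e-06). Itgb1 (0.27 ± 0.22, adjusted p = 0.331), Itga4 (-0.12 ± 0.57, 0.885) and Itgal (-0.49 ± 0.25, 0.102) did not pass. Itgal was dim throughout, between 5.35 and 7.16 in all 22 samples. Among APP/PS1 samples, 4 members were higher in astrocytes, Itgb1 by 1.98 and Itga4 by 1.55 in addition to the other two, and Itgal was lower by -0.85 (adjusted p = 0.00603). In WT samples Itgal also passed without microglia replicate 4 (-0.59, 0.0395).

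**Figure D1:**
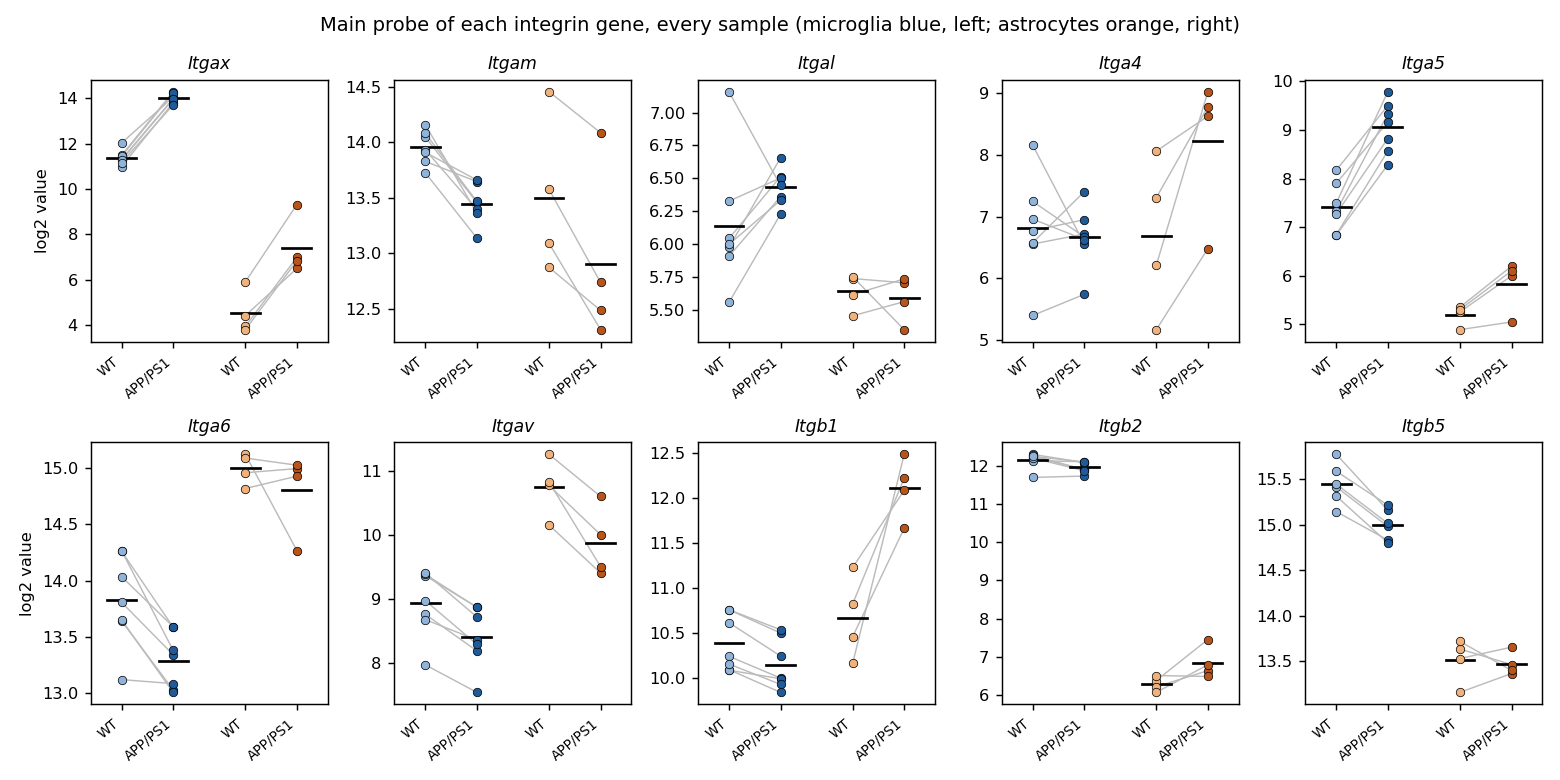
The deposited log2 value (vertical axis, a separate scale for each gene) of the main probe of each member in every sample, in microglia (blue) and astrocytes (orange), WT (light) and APP/PS1 (dark). Grey lines join the 2 samples of an array and black bars are group means. Itgax rises on every line in both cell types, and Itgb1 rises on all 4 lines in astrocytes.

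Itgam, which gave the antigen of the sort, was read by 3 probes that disagreed. The main probe (15955) was nearly as high in astrocytes, sorted as CD11b-, as in microglia: 13.73 to 14.16 (median 13.93) in WT microglia and 13.09, 13.58, 14.46 and 12.87 in WT astrocytes. The difference of -0.44 ± 0.23 did not pass (limma adjusted p = 0.121), and depended on the samples: it was -0.79 (1.94e-04) without astrocyte replicate 3, the highest, and -0.26 (0.417) without replicate 4, the lowest. It passed with quantile normalization (-0.63, 0.0255) and on the arrays matched in Eif2s3y (-0.71, 0.0102). The second probe (25026), annotated to the same transcript record, gave 11.72 to 12.48 (median 12.18) in WT microglia and 6.13, 6.62, 6.93 and 6.73 in WT astrocytes. The third (16540), annotated to another record, gave 9.04 to 9.80 (median 9.25) and 4.66, 4.51, 1.92 and 4.39. On both of these the astrocyte and microglia samples were far apart, as they were for Itgb2.

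The WT astrocytes differed from WT microglia by -5.57 ± 0.22 on probe 25026 (limma adjusted p over all named probes 2.79e-14) and by -5.47 ± 0.42 on probe 16540 (4.91e-10). At the probe level 53.9% of probes passed in this comparison. Relative to the main probe, the gap from microglia to astrocyte arrays was -4.71 on probe 25026 and -4.25 on probe 16540 (two-sided exact permutation of 7 against 4 arrays, p = 0.006061 each, the smallest this design allows; 0.0364 adjusted over 18 probe comparisons). Of those 18 comparisons 1 other passed, that of Itgav, whose second probe (44988) gave a gap of -0.64 relative to its main probe. When 1 array was left out, 0 of the 18 passed this exact test, since the smallest p it can give is then larger.

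The genotype differences of the Itgam probes were alike in sign in microglia and unlike in astrocytes. In microglia APP/PS1 samples were lower on 7 of 7 arrays by each probe: -0.48 ± 0.07 on the main probe (limma adjusted p = 7.17e-04), -0.35 ± 0.14 on probe 25026 (0.113) and -0.57 ± 0.25 on probe 16540 (0.148). In astrocytes the main probe gave 12.31, 12.74, 14.09 and 12.49 in APP/PS1 samples, lower than the WT sample on 4 of 4 arrays, and -0.59 ± 0.09 (7.13e-04). Probe 25026 gave 7.57, 6.72, 6.75 and 6.86, higher on 3 of 4 arrays, and 0.37 ± 0.18 (0.150). Probe 16540 gave 5.39, 4.44, 4.42 and 4.73, also higher on 3 of 4, and 0.87 ± 0.32 (0.0658). The other 2 probes exceeded the main probe's astrocyte difference on 4 of 4 arrays, by 0.97 and 1.47, each with the smallest two-sided exact sign-flip p that 4 arrays allow (0.125; adjusted 0.316). So the estimated direction of Itgam in APP/PS1 astrocytes depended on the probe, though neither rise passed. Probe 25026 differed by 1.44, 0.10, -0.18 and 0.13 on the arrays of replicates 1 to 4. Probe 16540 differed by 0.73, -0.07, 2.50 and 0.34 on them, and the 2.50 came with a WT value of 1.92, the lowest of that probe.

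**Figure D2:**
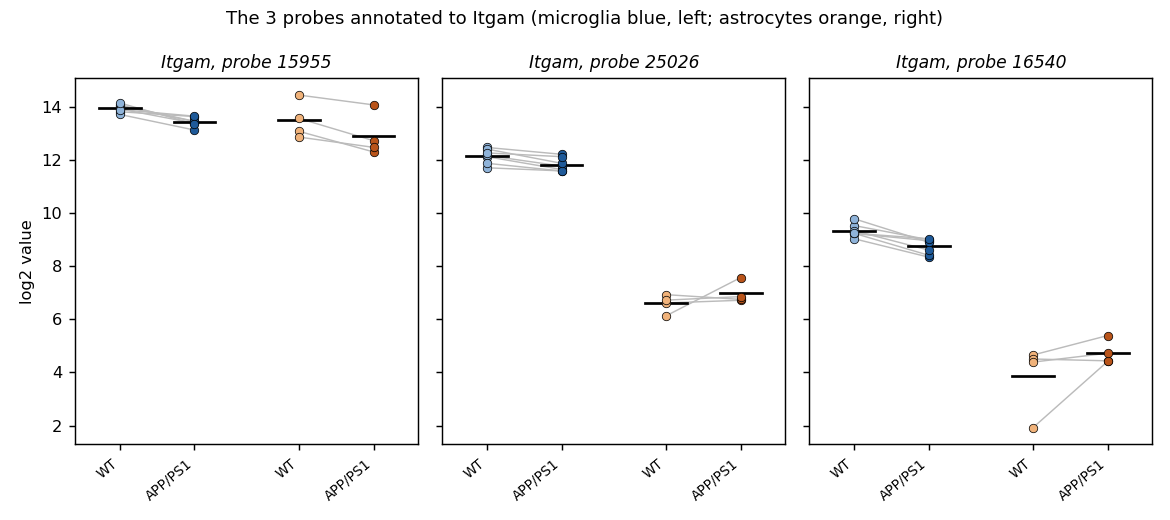
Log2 values (vertical axis, shared) of the 3 probes annotated to Itgam in microglia (blue) and astrocytes (orange) of WT (light) and APP/PS1 (dark) mice; grey lines join the samples of an array and black bars are group means. Probe 15955 is at 12.31 or more in all samples, while on probe 25026 the astrocyte samples reach at most 7.57 and the microglia samples at least 11.59.

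The profile of each probe over the 22 samples was set against the 16310 genes measured in all of them. These samples form 2 cell type clusters, so r mainly reflects the gap between cell types and is given as a description. The main Itgam probe was most like Siglech (r = 0.88), Tbl1xr1, Kat2a and Fbxl19 (0.86 for the last), and its r with Itgb2 was 0.42. Siglech, counted among the microglial markers, was closer between the cell types than most of them, -0.68 ± 0.20 in WT astrocytes. It passed as lower there, as did all 15 measured microglial markers, whose median difference was -8.67. Probe 25026 was most like Adgre1 (a macrophage marker), Abcc3, Bin2 and Snx20, with r = 0.99 for Itgb2, and probe 16540 was most like Arhgap30, Gm5086, Lrrc3 and Csf2rb2, with 0.97 for Itgb2. Itgb2 itself was most like Basp1, Coro1a, Bin2 and Syk. Itgax was most like Cd14 (0.99), Clec7a (0.99), Il1b (0.99) and Cox6a2 (0.98), and among the members like Itga5 (0.94).

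In APP/PS1 microglia Itgax and Itga5 were higher and Itga6, Itgav, Itgb5 and the main probe of Itgam lower than in the WT sample of the same array. The other 4 members did not pass. Over all genes 8.27% were higher and 11.4% lower. The members' median difference was -0.24, against -0.04 over all genes. The question is how each cell type of aged, plaque-forming mice differs from its WT counterpart, and each value is the APP/PS1 minus WT difference within arrays from 1 limma fit.

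Itgax rose by 2.62 ± 0.15 (6.15-fold; limma adjusted p = 5.11e-06). It was higher on 7 of 7 arrays, by 2.02 to 2.82, and the genotypes did not overlap. Itga5, the fibronectin receptor subunit, ranged from 6.84 to 8.17 (median 7.33) in WT and from 8.29 to 9.79 (median 9.16) in APP/PS1 microglia, again without overlap. It rose by 1.63 ± 0.12 (limma adjusted p = 1.71e-05). With Itgam, lower by its main probe, these were the 3 of 10 members whose genotypes did not overlap in microglia. On the Itgam probes 25026 and 16540 the genotypes overlapped. Over the 17950 genes measured on enough arrays, in either direction, 4.18% were without overlap.

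The 4 declines were of similar size. Itga6 ranged from 13.12 to 14.27 (median 13.81) in WT and 13.004 to 13.59 (median 13.34) in APP/PS1 microglia, and fell by 0.54 ± 0.13 (limma adjusted p = 0.0171); without microglia replicate 6 its adjusted p was 0.0598, and it also missed the threshold without replicate 4. Itgav ranged from 7.98 to 9.41 (median 8.98) and from 7.55 to 8.88 (median 8.36), and fell by 0.53 ± 0.09 (0.00217). Its second probe gave -0.71 (0.00238). Itgb5, blank on the array of replicate 1, ranged from 15.15 to 15.78 (median 15.43) and from 14.80 to 15.22 (median 15.00), and fell by 0.45 ± 0.08 on 6 of 6 arrays (0.00530). For Itga6, Itgav and Itgb5 the samples of the genotypes overlapped, while every array showed the lower value in APP/PS1. In the same samples the median microglial marker was lower by 0.59, with 7 of 15 called lower and 1 higher, and 7 of 9 perivascular macrophage and monocyte markers were lower. Some markers of other cells were lower too, 5 of 10 for astrocytes (median -0.79) and 4 of 8 for neurons (-0.48). Of oligodendrocyte (2 of 7), endothelial (1 of 10) and mural markers (1 of 8) those called were higher, with medians of 0.15, 0.03 and 0.03. Of 6 oligodendrocyte precursor markers 0 were called. The part of these cells in the declines was not tested.

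Itgb2 and Itgb1 were not called between the genotypes in the main fit. Itgb2 differed by -0.21 ± 0.11 (limma adjusted p = 0.251). Itgb1 ranged from 10.08 to 10.76 in WT and 9.84 to 10.53 in APP/PS1 microglia, and its -0.26 ± 0.12 did not pass (0.174) although APP/PS1 was lower on 7 of 7 arrays. The second Itgb1 probe (23811) gave -0.35 ± 0.10 and passed over all named probes (0.0345). At the probe level 19.2% of probes passed in microglia. Itgb1 also passed with the microglia arrays fitted alone (-0.24, 0.0146) and without astrocyte replicate 2 (-0.25, 0.0270).

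Itgal and Itga4, both carried by blood leukocytes, were highest in the WT microglia replicate that stood apart in neutrophil markers. Itgal was 7.16 there, against 5.56 to 6.33 in the other 6 WT samples and 6.23 to 6.66 in the 7 APP/PS1 samples. Over 7 arrays it differed by 0.31 ± 0.16 (limma adjusted p = 0.214). Without the array of replicate 3 it was higher by 0.46 ± 0.10 (0.0120), on 6 of 6 arrays. Itga4 was 8.16 in that WT sample, 5.40 to 7.25 in the other 6 WT samples and 5.74 to 7.40 in the 7 APP/PS1 samples. It differed by -0.13 ± 0.31 (0.828), and by 0.10 without that array. The second Itgal probe also gave its highest WT value there, 6.79, against a WT median of 4.92. The mean of 9 lymphocyte markers in that sample, 8.07, was also the highest of the WT microglia. So was the mean of 9 perivascular macrophage and monocyte markers, 9.99. In the fit 0 of 7 neutrophil and 0 of 10 lymphocyte markers passed between the genotypes (0 and 2 at an unadjusted p under 0.05). Neutrophils also carry CD11b and CD45, the antigens of the microglia gate. The part of neutrophils, lymphocytes, macrophages or monocytes in these 2 genes was not tested. The 6 members called in microglia were also called without that array.

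**Figure D3:**
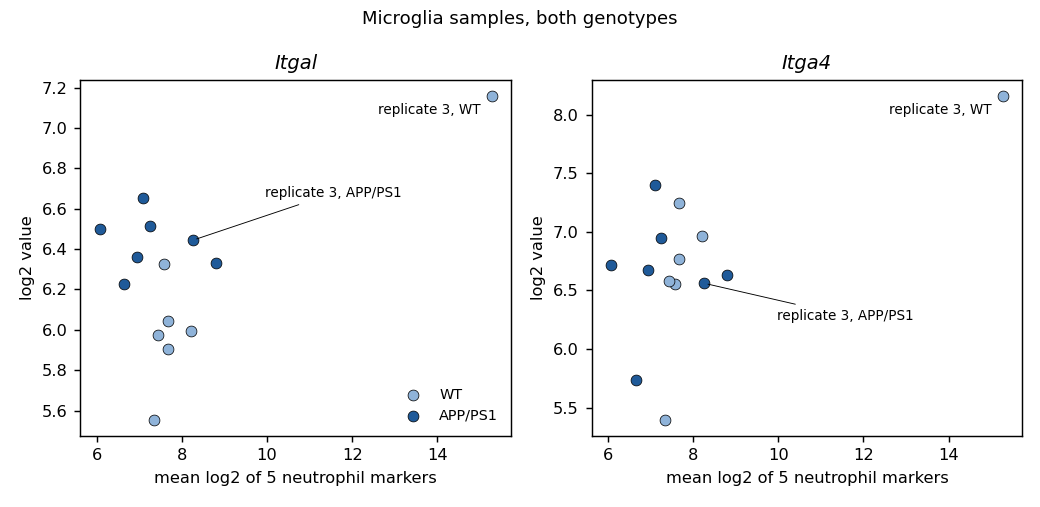
Log2 values of Itgal and Itga4 (vertical axes) against the mean log2 level of 5 neutrophil markers (horizontal axis) in the 14 microglia samples, WT light and APP/PS1 dark. The WT sample of replicate 3, at 15.28 on the horizontal axis, has the highest value of both genes.

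With no array block the microglia estimates were the same but the 4 declines were no longer called: Itgax and Itga5 passed in the unblocked fit (limma adjusted p = 6.60e-05 and 2.46e-04), while Itgam, Itga6, Itgav and Itgb5 did not (0.0759 to 0.382). Within slide 1 (4 arrays) Itgax was 2.61 and Itga5 1.70, and within slide 2 (3 arrays) they were 2.65 and 1.59. The 4 declines were -0.42 to -0.50 within slide 1 and -0.47 to -0.72 within slide 2. Each of these 6 members had the same direction on both slides. Itga4 was -0.42 within slide 1 and 0.37 within slide 2.

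In APP/PS1 astrocytes 5 members were higher (Itgax, Itga4, Itga5, Itgb1, Itgb2), 2 lower (Itgav and the main probe of Itgam) and 3 not called. Over all genes 15.4% were higher and 18.0% lower. The members' median difference was 0.25, against -0.07 over all genes. Markers of other cells were also higher in these APP/PS1 samples. Of 15 microglial markers 13 were higher and 1 lower (median difference 1.61), of 10 endothelial markers 9 were higher (1.14), and of 8 mural markers 6 were higher (1.92). All 10 astrocyte markers were lower (-1.48). The mean level of 14 microglial markers was 6.64 to 8.32 in WT and 8.19 to 10.57 in APP/PS1 astrocytes. In bulk samples, more cells of a type and more RNA per cell cannot be told apart, and the part of these cells in the results below was not tested.

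Itgax rose by 2.89 ± 0.20 (7.43-fold; limma adjusted p = 7.91e-05), by 3.41, 2.08, 3.05 and 3.03 on the arrays of replicates 1 to 4. The median microglial marker differed by 3.20, 1.64, 1.79 and 0.25 on those arrays. Tyrobp, the signalling adaptor of myeloid receptors, rose by 3.41 ± 0.25 (7.94e-05). Itgb2 rose by 0.55 ± 0.15 (0.0180), with differences of 1.07, 0.42, -0.02 and 0.72; its genotypes overlapped, and it did not pass without replicate 1 (0.38, adjusted p = 0.0969) or without replicate 4 (0.45).

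Itgb1 was 10.82, 10.16, 10.46 and 11.23 in WT and 12.22, 12.48, 11.66 and 12.08 in APP/PS1 astrocytes. The genotypes did not overlap, and it rose by 1.44 ± 0.16 (limma adjusted p = 2.43e-04). That standard error pools the spread of both cell types. The standard deviation of the Itgb1 array differences was 0.63 in astrocytes and 0.08 in microglia. The second Itgb1 probe gave 1.25 ± 0.13 (2.01e-04). Itgax and Itgb1 were the 2 of 10 members without overlap between the genotypes; over the 21931 genes measured on enough arrays, in either direction, this held for 17.4%. The differences of Itgb1 on the 4 arrays were 1.40, 2.32, 1.20 and 0.86, and those of the median mural marker 1.54, 2.32, 2.11 and 1.26. The median endothelial marker differed by 0.28, 1.49, 1.00 and 1.80 on them.

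Itga4 was 7.31, 6.21, 5.17 and 8.06 in WT and 8.78, 9.03, 6.48 and 8.63 in APP/PS1 astrocytes. The groups overlapped, but the APP/PS1 sample was the higher on 4 of 4 arrays, and Itga4 rose by 1.54 ± 0.40 (limma adjusted p = 0.0148). It did not pass without replicate 1 (1.53) or without replicate 2 (1.02, adjusted p = 0.0792). The second, dimmer Itga4 probe gave 1.27 ± 0.30 (0.0231). Itga5 was 5.35, 5.26, 4.89 and 5.31 in WT and 6.20, 6.00, 5.05 and 6.10 in APP/PS1 astrocytes, low values on both sides. It rose by 0.63 ± 0.16 (0.0111) and did not pass without replicate 4 (0.51, 0.0601). At the probe level 32.4% of probes passed in astrocytes.

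Itgav, which was higher in WT astrocytes than in WT microglia, fell in APP/PS1 astrocytes. The values were 10.16, 10.78, 11.26 and 10.83 in WT and 9.41, 10.01, 10.61 and 9.51 in APP/PS1 samples, lower on 4 of 4 arrays. It fell by 0.87 ± 0.11 (limma adjusted p = 4.53e-04), and its second probe by 0.64 (0.0102). Itga6 was 15.12, 14.96, 15.09 and 14.82 in WT and 14.27, 15.00, 15.03 and 14.93 in APP/PS1 astrocytes. Its difference of -0.19 ± 0.17 did not pass (0.438) and rested on replicate 1. Itgb5 differed by -0.04 ± 0.10 (0.803) and Itgal by -0.05 ± 0.20 (0.874).

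**Figure D4:**
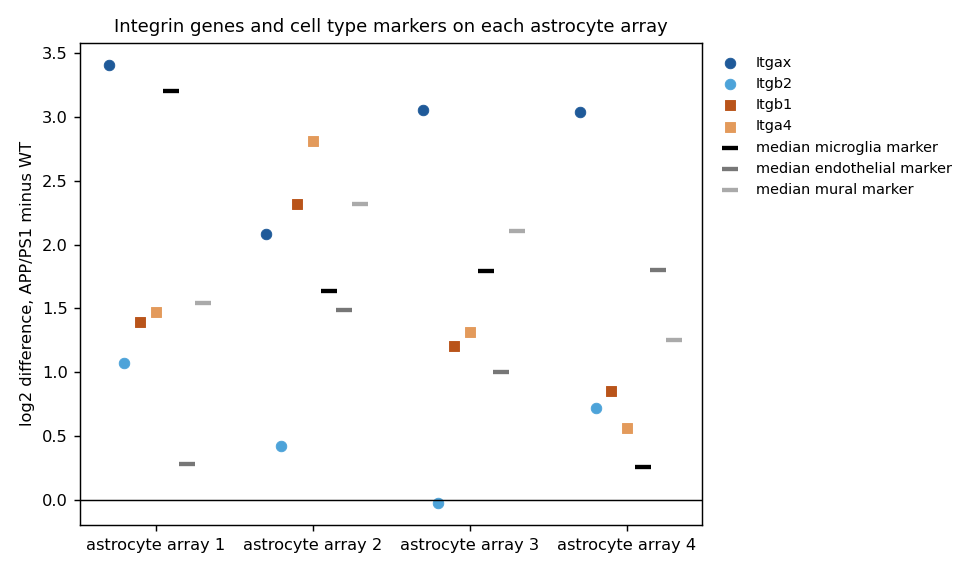
APP/PS1 minus WT log2 difference (vertical axis) on each of the 4 astrocyte arrays (horizontal axis) for Itgax, Itgb2, Itgb1 and Itga4 (points), beside the median difference of the microglial, endothelial and mural markers (dashes). Itgax and the median microglial marker differ by 3.41 and 3.20 on array 1, and by 3.03 and 0.25 on array 4.

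Without the array as a block, 2 of the 5 astrocyte rises passed, Itgax (limma adjusted p = 0.00111) and Itgb1 (0.00116), and 0 of the 2 declines (1 at an unadjusted p under 0.05). With the 4 astrocyte arrays fitted alone, 3 rises passed, Itga5 and Itgb2 being lost. On the arrays of replicates 2 and 4 only, those whose samples matched in Eif2s3y, 3 rises and 2 declines passed; Itga4 and Itga5 were lost there with differences of 1.69 and 0.77. That fit kept the matched microglia arrays, and its p-values mostly measure their spread rather than that of the astrocytes.

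The genotype difference itself was compared between the cell types by an interaction term, astrocyte minus microglia. Of the 10 members 5 passed, 4 more positive in astrocytes and 1 in microglia, and over all genes 26.6% passed. Itgb1 had the firmest contrast, 1.71 ± 0.20 (limma adjusted p = 3.48e-04), and its second probe gave 1.59. Itgb2 gave 0.76 ± 0.19 (0.0147), but missed the threshold without astrocyte replicate 1 (0.0515). Itga4 gave 1.67 ± 0.51 (0.0358) and Itgb5 0.41 ± 0.13 (0.0469). These 2 calls were not stable: with each of the 11 arrays left out in turn, that of Itga4 was lost in 6 cases and that of Itgb5 in 9. Itga5 gave -0.997 ± 0.20 in the same contrast, the rise in microglia being the larger (0.00482). With no array block its adjusted p was 0.187, and Itgb1 alone of the 5 calls remained. On the arrays matched in Eif2s3y, Itgb1 and Itgb2 were called, and Itga5 (-0.83, 0.0819), Itga4 (1.89, 0.145) and Itgb5 (0.20, 0.285) were not.

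The Itgax difference was 0.27 ± 0.25 between the cell types and did not pass (limma adjusted p = 0.477), which does not show that the rises were equal; without astrocyte replicate 2 it was 0.60 and passed (0.0450). Itgav (-0.34 ± 0.14, 0.109), Itga6 (0.35 ± 0.22, 0.278) and Itgal (-0.36 ± 0.26, 0.344) did not pass, though Itga6 did without astrocyte replicate 1 (0.62) and Itgal without microglia replicate 3 (-0.52). For Itgam the answer again hung on the probe: -0.11 (0.497) on the main probe, 0.73 ± 0.23 (0.0422) on probe 25026 and 1.44 ± 0.41 (0.0270) on probe 16540. At the probe level 25.8% of probes passed.

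**Figure D5:**
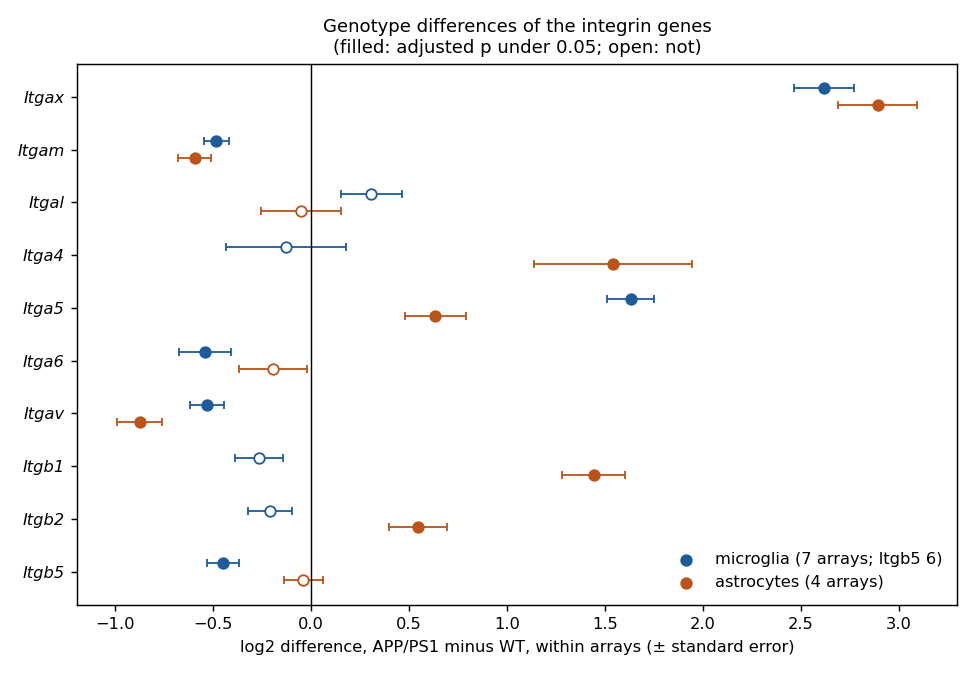
APP/PS1 minus WT log2 difference within arrays (horizontal axis, with standard errors as bars) of each member in microglia (blue, 7 arrays, 6 for Itgb5) and astrocytes (orange, 4 arrays); filled points passed an adjusted p of 0.05 in the limma fit. Itgax is far to the right in both cell types, and Itgb1 and Itga4 are to the right in astrocytes (1.44 and 1.54).

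The remaining integrin subunits and the genes around them were read as fixed lists. For comparison with each list, 8.27% of all genes were called higher and 11.4% lower in microglia, with a median difference of -0.04. In astrocytes the shares were 15.4% and 18.0%, with a median of -0.07. Of 16 other subunit genes, 1 passed in microglia, Itga9 (an alpha partner of Itgb1), which fell by 1.12 ± 0.09 (limma adjusted p = 2.75e-05). In astrocytes 8 were higher and 0 lower (0 at an unadjusted p under 0.05), among them Itga9 (1.43), Itgb3 (1.27), Itga3 (1.26) and Itgb4 (0.81). The list's median difference was 0.21 in microglia and 0.74 in astrocytes. Itgad, the fourth CD11 subunit gene, did not pass in microglia (0.30 ± 0.37) or astrocytes (-0.44 ± 0.49).

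The list of leukocyte integrin ligands and counter-receptors had 17 measured genes. They include Olfr48, an olfactory receptor gene that is not a ligand and entered by a shared name. Complement C3, also on the list, was not measured. Of these 17, Icam1 was higher in microglia by 0.47 ± 0.14 (limma adjusted p = 0.0426) and the junctional molecule F11r lower by 0.45 ± 0.10 (0.0122). In astrocytes 4 were higher (F11r 1.41, Icam1 1.31, Icam2 1.26 and Jam3 0.77) and 4 lower, including Vcam1, the partner of the Itga4 product, which fell by 1.24 ± 0.24 (0.00326). Of 24 matrix ligands, 2 were higher in microglia, the laminin chain Lamc1 (0.55) and periostin, Postn (0.93), and 14 in astrocytes, with 0 lower (1 at an unadjusted p under 0.05) and a list median of 1.26. Among the 14 were the vessel-wall collagens Col4a1 (1.78) and Col4a2 (1.55), vitronectin, Vtn (2.02), Thbs1 (2.82) and the latent factors Tgfb1 (0.96) and Tgfb3 (2.08); Itgav, whose product binds vitronectin and latent TGF-beta, fell in the same samples. Endothelial and mural markers, which come from the cells of the vessel wall, were higher in these samples, as given above.

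Of 31 activators and adaptors, which couple integrin tails to actin, 4 were higher and 7 lower in microglia. Vinculin (Vcl, 0.86), Parva (0.99, 4 arrays) and Cyth1 (0.63) were higher, and talin (Tln1, -0.48) and the leukocyte kindlin Fermt3 (-0.47) lower. In astrocytes 16 were higher and 3 lower, those with the smallest adjusted p being Apbb1ip (1.85), Fyb (2.04), Lims2 (1.53) and Parvg (0.96). Of 16 downstream kinases and exchange factors, 3 were higher in microglia, the Src-family kinases Fyn (1.55) and Fgr (1.74) and the adaptor Tyrobp (0.84), and 5 lower, including Syk (-0.60), Vav2 (-0.40) and Elmo1 (-0.84). In astrocytes 9 were higher and 2 lower. The medians of these lists were -0.15 and -0.21 in microglia and 0.58 and 0.50 in astrocytes.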

How the data were processed

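Transcripts of sorted cells were measured on 11 dual-colour Agilent arrays, 22 single-channel columns of log2 values as deposited by the authors. The submitters' processing notes name limma without a version; how background was corrected and the values normalized is not given in the sources used, and the values carry no depth, so precision rests on the number of arrays. Of 43020 probes, 33026 named 1 gene and 9994 none; the unnamed were not used.

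Genotype was fitted in R 4.3.3 with limma 3.58.1 over all 22 samples, in a model of array (fixed block), dye, and a genotype term for each cell type; APP/PS1 was in Cy5 on 3 of 7 microglia and 2 of 4 astrocyte arrays. All samples shared 1 residual spread per gene, because 4 astrocyte arrays leave few degrees of freedom. The astrocyte and interaction standard errors and p-values therefore do not measure the spread between astrocyte samples alone. For the cell type difference the model had group means and dye, and arrays entered as random blocks (statmod 1.5.0). Blank values stayed missing, and a blank on an array was shared by both channels on 11 of 11 arrays. All tests are two-sided, and p-values were adjusted by Benjamini and Hochberg's method over all genes (or all named probes), with 0.05 as the threshold. Probes of 1 gene were compared by exact sign flips or permutations of arrays. The fits were tested on simulated data. Both cell types had the same spread there, so the simulation cannot show how a shared spread serves the astrocytes. The pairing comes from the labels, which put both samples of a number on 1 array; centred on their groups, their r across 16310 genes was 0.37 to 0.63 in microglia and 0.00 to 0.50 in astrocytes.

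The text names all 10 members, up to 4 genes of each of 5 pathway lists per cell type by adjusted p (or a known ligand), and the 4 genes most like Itgax, Itgb2 and each Itgam probe; Itgad and, in microglia, Syk, Tln1, Fermt3 and Tyrobp fall outside this rule and were chosen after their values were seen. The members, lists and marker lists were chosen with earlier results of these data known. Alternatives changed the block, dye term, normalization, probe rule, gene filter, slides and arrays used. Arrays matched in Eif2s3y and the other Itgam probes were added after seeing the data. The rest was done in Python 3.11.15 with numpy 2.4.6, pandas 2.3.3 and scipy 1.17.1. Probe sequences were not used here, so where the Itgam probes bind was not examined.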

Additional observations from a re-analysis of the deposited data

Results flagged for a closer look

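Several single samples lay far from the others of their group, by the gap to the nearest sample relative to the group's range (Dixon's 95% value). Of 60 groups of values examined, 7 were singled out, and chance alone gives about 1 in 20. In microglia, the array of replicate 2 had the lowest Itgax difference (2.02, against 2.54 to 2.82 on the other 6), and that of replicate 3 the lowest Itgal difference (-0.71), the array whose WT sample was high in neutrophil markers. The WT microglia of replicate 4 had the lowest Itgb2 value (11.70). In astrocytes, the APP/PS1 sample of replicate 3 had the lowest Itga4 (6.48), and its array the lowest Itga5 difference (0.16). The APP/PS1 sample of replicate 1 had the lowest Itga6 (14.27), and the array of replicate 4 the lowest Itgav difference (-1.32).

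The genotype difference differed between cell types, by the interaction term of the limma fit (astrocyte minus microglia difference), for Itgb1 (1.71), Itga4 (1.67), Itgb2 (0.76), Itgb5 (0.41) and Itga5 (-0.997). Other probes past the same threshold over all named probes were 25026 (0.73) and 16540 (1.44) of Itgam and 23811 of Itgb1 (1.59). The main Itgam probe, at -0.11, did not pass.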

How the results depend on the processing

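Alternatives changed 1 choice at a time. With no array block 0 members were called lower in microglia (2 at an unadjusted p under 0.05), 2 higher and 0 lower in astrocytes, and 1 higher and 0 lower (3 and 1 unadjusted) in the interaction; over all genes the higher and lower counts fell to 739 and 445, 1387 and 1060, and 788 and 703. The pairing by array changed no call of a member between cell types. Within slide 1, 0 members were called lower in microglia (4 unadjusted; all genes 525 higher, 348 lower); within slide 2, with 3 arrays, 0 higher and 0 lower (3 and 3 unadjusted), and 0 and 0 over all genes (2557 and 2929 unadjusted). Itga4 there was 0.37. Astrocyte arrays alone gave 3 members higher and 1476 and 1344 genes; arrays matched in Eif2s3y gave 3 higher, and 2 higher and 0 lower (4 and 2 unadjusted) in the interaction, with 2165 and 2282 genes in astrocytes and 1944 and 1920 in the interaction. Those arrays gave Itgal 0.11 and Itga6 0.0735 in astrocytes, an Itgax interaction of -0.0534 and an Itga4 cell type difference of 0.32. Averaging all probes, or taking probe 25026 or 16540, left 1 member lower in astrocytes and gave Itgam 0.22, 0.37 and 0.87 there and 0.69, 0.73 and 1.44 in the interaction; averaging also gave Itgal 0.11. Quantile normalization gave Itgb5 0.0057 in astrocytes. Testing genes above the median gene alone gave 2 members lower in the interaction and 5064 genes higher in astrocytes; slide as a random block gave 4875 and 2386. APP/PS1 samples gave 4 members higher in astrocytes and Itga4 1.55.

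Leaving out each array gave 3 to 5 members higher in astrocytes, 2 to 4 higher and 1 to 2 lower in the interaction, and 0 probe disagreements, the lowest adjusted exact p then being 0.0571. Over these, Itga4 ranged from -0.31 to 0.10 in microglia and -0.61 to 0.37 between cell types; in astrocytes Itgal ranged from -0.15 to 0.11, Itga6 from -0.32 to 0.0656 and Itgb5 from -0.15 to 0.0483. The other minus main probe ranged from -0.20 to 0.0065 (Itgam 16540), -0.0265 to 0.17 (Itgal) and -0.69 to 0.52 (Itga4) in microglia, and for Itga4 from -0.87 to 0.14 in astrocytes and -0.53 to 0.18 in the level gap. The second Itga4 probe had values on only 3 microglia arrays, so its microglia and level gap ranges rest on few arrays. Of the comparisons of single members, 215 in microglia, 193 in astrocytes, 176 in the interaction and 204 between cell types kept direction and call. Direction was reversed in 2, 11, 4 and 5 others. With direction kept, a call was lost in 18 in microglia, 14 in astrocytes and 24 in the interaction. One was gained in 3 in microglia, 4 in the interaction and 9 between cell types. The cause of the changes was not tested.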
